A study of Homo sapiens with 5 samples.

Results

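The genes described here are 9 members of the extrinsic cell death pathway that were chosen by symbol from the deposited count table: the receptors FAS, TNFRSF10A, TNFRSF10B, TNFRSF10C, TNFRSF10D, TNFRSF1A and EDA2R, and the cytoplasmic proteins FADD and CFLAR. All 9 were found among the 26485 genes of the table, and 8 of the 9 passed the filter on low counts that 14187 genes passed. RNA-seq was performed on RPE1, an established human line of retinal pigment epithelial cells with the wild-type genotype, without any other allele or agent named in the labels. The 5 libraries came from cells kept for 18 h with DMSO, the solvent (2 libraries), with 0.2 μM doxorubicin (2 libraries) or with 0.34 μM doxorubicin (1 library). Doxorubicin is a chemotherapeutic drug that intercalates into DNA and traps topoisomerase II on it, which leaves double-strand breaks. The sample titles give these doses, whereas the treatment description in the labels gives 200 and 340 μM. In the study's own design the 3 doxorubicin libraries form 1 group that is compared with the 2 DMSO libraries, and the methods call the libraries biological replicates without further detail, so the p-values below measure the spread between these libraries.

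Death receptors are members of the TNF receptor superfamily that carry a cytoplasmic death domain. When their ligand brings them together, the death domain recruits the adaptor FADD, which in turn recruits the initiator caspase CASP8, and this assembly is called the death-inducing signalling complex. Decoy receptors bind the same ligand but lack a working death domain, and CFLAR (c-FLIP) is a caspase-like protein that competes with CASP8 for FADD. Several genes of this family, including FAS, TNFRSF10B and EDA2R, are textbook targets of the transcription factor p53, which DNA damage activates.

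The promoters of 4 members are shown to let their sequence be read beside the values that follow: FAS and EDA2R, whose levels in the doxorubicin libraries were all above those in the DMSO libraries, and TNFRSF1A and FADD, whose levels overlapped between the groups. Each sequence runs from 250 bases before to 50 bases after the transcription start listed first for the gene (RefSeq, GRCh38.p14). The windows are chr10:88990548-88990847 on the plus strand for FAS, chrX:66639220-66639519 on the minus strand for EDA2R, chr12:6342027-6342326 on the minus strand for TNFRSF1A and chr11:70203046-70203345 on the plus strand for FADD. That of FAS lies inside the annotated span of the gene, which begins at 88964050. Capitals mark the GC box, GGGCGG read on either strand.
FAS: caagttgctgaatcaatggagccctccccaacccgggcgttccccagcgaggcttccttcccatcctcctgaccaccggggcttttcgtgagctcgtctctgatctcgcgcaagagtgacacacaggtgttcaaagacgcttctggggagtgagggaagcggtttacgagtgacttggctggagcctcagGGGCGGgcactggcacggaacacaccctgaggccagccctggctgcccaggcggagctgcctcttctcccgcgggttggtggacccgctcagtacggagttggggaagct
EDA2R: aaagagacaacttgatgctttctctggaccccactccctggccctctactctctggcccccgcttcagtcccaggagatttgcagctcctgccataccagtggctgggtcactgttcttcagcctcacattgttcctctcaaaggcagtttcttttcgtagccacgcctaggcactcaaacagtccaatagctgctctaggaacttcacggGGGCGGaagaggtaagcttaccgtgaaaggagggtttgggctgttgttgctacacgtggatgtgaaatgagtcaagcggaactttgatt
TNFRSF1A: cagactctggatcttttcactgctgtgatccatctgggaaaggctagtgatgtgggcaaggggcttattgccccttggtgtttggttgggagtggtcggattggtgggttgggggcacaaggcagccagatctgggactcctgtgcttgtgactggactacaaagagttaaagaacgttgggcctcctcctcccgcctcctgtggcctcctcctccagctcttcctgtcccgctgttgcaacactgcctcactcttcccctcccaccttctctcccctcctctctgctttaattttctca
FADD: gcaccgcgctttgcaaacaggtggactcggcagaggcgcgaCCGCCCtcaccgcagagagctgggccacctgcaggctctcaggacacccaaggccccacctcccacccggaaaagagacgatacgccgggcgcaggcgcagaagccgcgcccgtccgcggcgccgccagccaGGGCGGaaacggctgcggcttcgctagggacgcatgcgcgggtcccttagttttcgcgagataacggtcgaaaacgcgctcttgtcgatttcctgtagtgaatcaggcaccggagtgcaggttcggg
The table of promoters matched 5 of the 9 members. A GC box was found in 44.95% of the 35116 promoters of the table, once in the printed promoters of FAS and EDA2R, 2 times in that of FADD and not in that of TNFRSF1A. The p53 decamer, a single copy of the element that p53 binds as a pair, was held by 6.632% of promoters. A decamer was counted, here and in the full site, only where every base matched the consensus, so sites with mismatches were missed. It occurred in none of the 4 printed sequences, and among the matched members it occurred 1 time, at the second listed start of FAS (chr10:88991181-88991480, plus strand). The full p53 site, 2 decamers up to 13 bases apart, was held by 0.02848% of promoters (10 in all) and by none of the listed starts of FAS, EDA2R, TNFRSF1A, FADD or CFLAR. The NF-kB site (5.909% of promoters) was present at the second start of FAS and the first start of CFLAR, and a TATA box, TATAAA on either strand (11.53% of promoters), was absent from all of them. These are matches of letters in windows of 300 bases and describe no binding.

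Depth and treatment were checked first. Counts on genes summed to between 23773061 and 36725345 per library. CDKN1A, the p53 target that encodes the cell cycle inhibitor p21, rose from 276 ± 26.1 CPM (counts scaled to a common library size, TMM-normalized; SD, n = 2) in DMSO to 2900 ± 500.4 CPM (SD, n = 3) in doxorubicin (log2 fold change 3.39, SE 0.23, adjusted p = 0.000768). This and every adjusted p below, unless DESeq2 is named, is the Benjamini-Hochberg value over all genes tested of the quasi-likelihood test in edgeR. Of 10 markers of retinal pigment epithelium, 5 were under 1 CPM in every library, among them RPE65, the visual cycle enzyme, with 3 to 8 counts, while the transcription factors MITF and OTX2 were expressed. Other markers of this list had few counts and went in both directions. PMEL had 7 and 5 counts in DMSO and 22 to 46 with the drug, and BEST1 had 26 and 14 against 30 to 142. SERPINF1 had 11 and 29 counts in DMSO and 4 to 15 with the drug. The epithelial genes EPCAM and CDH1 had at most 4 counts, and the keratins KRT8 and KRT18 carried the summed epithelial level of 583 to 696 CPM in DMSO and 970 to 1176 CPM in doxorubicin. The summed levels of the mesenchymal markers were 6214 to 6893 CPM in DMSO and 5235 to 6176 CPM in doxorubicin, and VIM carried most of them. COL1A1 differed widely within the groups, with 287 and 64.5 CPM in DMSO, 189 and 42.7 CPM at 0.2 μM and 151 CPM at 0.34 μM. Of the 5 leukocyte markers, CD3E was at 0 counts everywhere and CD68 carried most of the summed level (91.2 to 101 CPM in DMSO, 78.9 to 111 CPM in doxorubicin), and PTPRC had 5 and 7 counts in the controls against 25, 53 and 72 with the drug. No marker passed the threshold (adjusted p under 0.01), and the part of these markers in the results below was not tested. In bulk RNA, fewer cells of a type and less RNA per cell cannot be told apart.

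TNFRSF10B, a receptor for TRAIL, and EDA2R, a receptor for ectodysplasin, rose in the doxorubicin libraries, while the levels of the TNF receptor TNFRSF1A and the adaptor FADD overlapped between the groups. Of the 8 members tested, these 2 passed the threshold and none fell, against a background of 1.29% of all genes higher and 2.73% lower (4.02% in either direction). The median log2 fold change of the 8 was 1.01, beside 0.013 over all genes tested. The members were chosen with earlier results of these data known, so the comparisons with all genes in this paragraph are descriptions only. For FAS, TNFRSF10A, TNFRSF10B, TNFRSF10D, EDA2R and CFLAR, 6 of 8, every doxorubicin library lay above both DMSO libraries, which was so for 24.3% of all genes, and for no member did every doxorubicin library lie below, against 23.4% of all genes. With DESeq2, the test the study used, 4 of the 8 passed, all higher (FAS, TNFRSF10A, TNFRSF10B and EDA2R), against 14.1% of genes in either direction. FAS and TNFRSF10A thus passed in DESeq2 and lay just outside the threshold in edgeR.

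**Figure D1:**
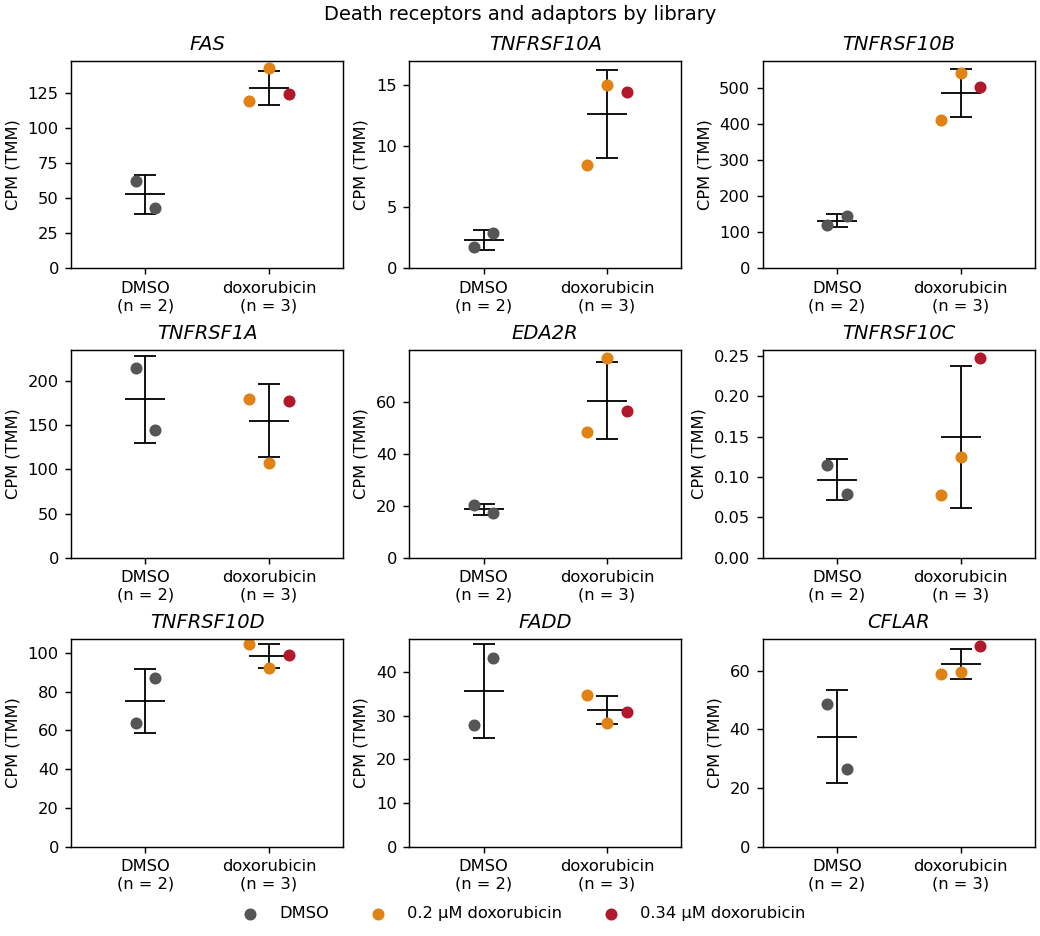
TMM-normalized CPM of each gene in every library (points, coloured by treatment), with the mean (long line) and SD (whiskers) of the 2 DMSO and 3 doxorubicin libraries. The points of FAS, TNFRSF10A, TNFRSF10B and EDA2R are well separated between treatments, those of TNFRSF1A and FADD overlap, and the scale of TNFRSF10C stays under 1 CPM.

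TNFRSF10B (DR5, TRAIL-R2), a signalling receptor for the death ligand TRAIL, had the highest level per kb of exon of the members in treated cells. It had 120 and 146 CPM in the DMSO libraries, 413 and 543 CPM at 0.2 μM and 503 CPM at 0.34 μM. The lowest treated library was therefore far above the higher control. The mean rose from 133 ± 18.2 to 486 ± 66.6 CPM (3.66-fold, log2 fold change 1.87, SE 0.20, adjusted p = 0.00271, and 8.47e-17 with DESeq2). The fold change stayed between 1.73 and 2.00 on the log2 scale when each library was left out in turn, but with 4 libraries the adjusted p was under 0.01 only without the first 0.2 μM library (0.00769) and reached at most 0.0159, without the second DMSO library.

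TNFRSF10A (DR4, TRAIL-R1), the other signalling TRAIL receptor, had a far lower level per kb and the highest fold change of the 8 members tested. Its values were 1.72 and 2.90 CPM in DMSO (45 and 74 counts), 8.47 and 14.9 CPM at 0.2 μM (219 and 359 counts) and 14.4 CPM at 0.34 μM (522 counts). The lowest treated library held more than the higher DMSO library, and the first 0.2 μM library was below the other treated ones. The mean was 2.31 ± 0.836 CPM in DMSO and 12.6 ± 3.58 CPM in doxorubicin, 5.45-fold higher (log2 fold change 2.45, SE 0.38), with an adjusted p of 0.0104 that missed the threshold in edgeR and of 7.98e-09 in DESeq2.

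The decoys of the TRAIL system among the members had smaller differences or were near the limit of detection. The soluble decoy TNFRSF11B is described further below and is not part of the shares and ratios that follow. TNFRSF10D (DcR2, TRAIL-R4), whose death domain is truncated, had 63.6 and 86.9 CPM in DMSO, 104 and 92.1 CPM at 0.2 μM and 99.1 CPM at 0.34 μM. The treated libraries were above the controls, with a narrow gap between the second DMSO and the second 0.2 μM library. The mean was 75.2 ± 16.5 CPM in DMSO and 98.5 ± 6.14 CPM in doxorubicin, a log2 fold change of 0.39 (SE 0.18) that did not pass the test (adjusted p = 0.191, and 0.222 with DESeq2). It was 0.17 without the first DMSO library (adjusted p = 0.462) and 0.62 without the second (adjusted p = 0.0588). TNFRSF10C (DcR1, TRAIL-R3), a decoy held in the membrane by a lipid anchor, had 3 and 2 counts in DMSO, 2 and 3 counts at 0.2 μM and 9 counts at 0.34 μM. It failed the filter on low counts and was not tested, and a change in it was not detectable at this depth.

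All 4 TRAIL receptor genes lie in a cluster on chromosome 8 (GRCh38.p14): TNFRSF10B at 23020133 to 23069031, TNFRSF10C at 23102921 to 23117445, TNFRSF10D at 23135588 to 23164027 and TNFRSF10A at 23190452 to 23225102. They are related in sequence, and the sources used here do not say how multi-mapping reads were handled, so reads of one could have been counted for another. RHOBTB2, which overlaps TNFRSF10B, had 37.4 ± 2.72 CPM in DMSO and 21.9 ± 3.78 CPM in doxorubicin (log2 fold change -0.77, SE 0.19, adjusted p = 0.0448), a difference in the other direction from that of TNFRSF10B. LOC254896, which overlaps TNFRSF10C, had 13 to 32 counts per library. TNFRSF10B-AS1, which also overlaps TNFRSF10B, and RPL23AP55, which overlaps TNFRSF10A, are not among the genes counted. No other annotated gene overlaps TNFRSF10D.

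The makeup of the TRAIL receptor mRNAs differed between the treated and the control libraries. On a per-length scale (CPM per kb of annotated exon), TNFRSF10B made up 56.2% and 53.1% of the summed level of the 4 genes in DMSO, 71.7% and 77.6% at 0.2 μM and 75.2% at 0.34 μM. The decoy TNFRSF10D made up 42.2% and 45.0% in DMSO, 25.7% and 18.7% at 0.2 μM and 21.0% at 0.34 μM. Shares of TNFRSF10B were thus higher, and those of TNFRSF10D lower, in each treated library than in either control. These genes make up most of the sum, so their shares move against each other and are not separate results. The level of TNFRSF10D itself was not lower with the drug (mean 21.3 CPM per kb in DMSO and 27.9 in doxorubicin). TNFRSF10A made up 1.38% and 1.81% in DMSO and 2.52% to 3.68% in doxorubicin, and TNFRSF10C was at or under 0.174% everywhere. The group means were 54.7% ± 2.17 (SD, n = 2) and 74.8% ± 2.96 (SD, n = 3) for TNFRSF10B, and 43.6% ± 1.92 and 21.8% ± 3.58 for TNFRSF10D. With the length of the canonical transcript in place of all exons, the means of TNFRSF10B were 60.1% and 78.6%.

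A ratio taken within a library does not depend on how libraries are scaled, except through the prior count added to low counts. The length of the genes cancels in its difference between groups. The log2 ratio of TNFRSF10B over TNFRSF10D (log2 CPM, prior count of 2) was 0.91 and 0.74 in DMSO, 1.98 and 2.56 at 0.2 μM and 2.34 at 0.34 μM, so that it was 1.47 higher in doxorubicin (0.83 ± 0.12 against 2.29 ± 0.29). The log2 ratio of TNFRSF10A over TNFRSF10D was -5.15 and -4.87 in DMSO, -3.61 and -2.62 at 0.2 μM and -2.78 at 0.34 μM, a difference of 2.01. Both ratios separated the groups. In a two-sided exact permutation test of 3 against 2 libraries each gave p = 0.2 (0.2 after adjustment over the 2 pairs), which is the smallest p that this test can give with 3 against 2 libraries, so that it cannot reach a p of 0.05. The mean of the 2 ratios was 1.74 higher in doxorubicin and between 1.58 and 1.97 higher with any 1 library left out. With a prior count of 0.5 it was 1.75 higher.

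**Figure D2:**
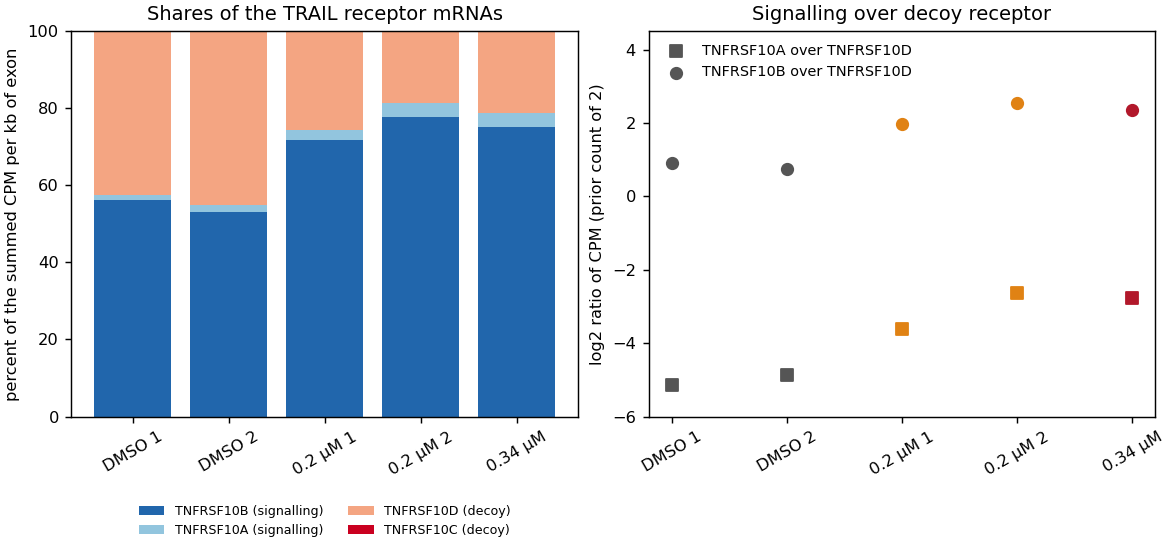
Left, percent of the summed CPM per kb of exon of the 4 TRAIL receptor genes in each library, stacked by gene; TNFRSF10C is too low to be visible. Right, log2 ratio of the CPM of each signalling receptor over the decoy TNFRSF10D in each library, coloured by treatment; both ratios are higher in the 3 doxorubicin libraries than in the 2 DMSO libraries.

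FAS (CD95), the receptor for FAS ligand, spans 88964050 to 89017059 on chromosome 10 (GRCh38.p14). It had 62.8 and 43.0 CPM in the DMSO libraries, 120 and 143 CPM at 0.2 μM and 124 CPM at 0.34 μM. Each treated library was well above the first DMSO library, the higher of the pair. The mean was 52.9 ± 14.02 CPM in DMSO and 129 ± 12.3 CPM in doxorubicin, which gave a log2 fold change of 1.29 (SE 0.21, adjusted p = 0.0111, and 7.45e-07 with DESeq2). Its log2 fold change was 1.58 without the first DMSO library and 1.02 without the second. ACTA2, the smooth muscle actin gene that overlaps FAS in the annotation, varied within groups, with 287 and 38.7 CPM in DMSO, 382 and 152 CPM at 0.2 μM and 333 CPM at 0.34 μM (log2 fold change 0.83, SE 0.78, adjusted p = 0.522). In the second DMSO library FAS and ACTA2 were both lower than in the first, whereas in the second 0.2 μM library FAS was higher and ACTA2 lower than in the first. The strand setting of the counting is not given either, and the part of reads from ACTA2 in the FAS counts was not tested. FAS-AS1 had 25 counts or fewer in every library.

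EDA2R (XEDAR) encodes a receptor for an isoform of ectodysplasin A and has no death domain of its own. The gene lies on chromosome X at 66595637 to 66639269, and no other annotated gene overlaps it. Its levels were 20.1 and 17.0 CPM in DMSO, 48.3 and 77.0 CPM at 0.2 μM and 56.4 CPM at 0.34 μM. The treated libraries were all above the controls and varied more among themselves than the controls did. The mean rose from 18.6 ± 2.19 to 60.6 ± 14.8 CPM (3.26-fold, log2 fold change 1.70, SE 0.24, adjusted p = 0.00772, and 4.00e-09 with DESeq2). Leaving out any of the 5 libraries kept the log2 fold change between 1.50 and 1.85 and took the adjusted p above the threshold, to between 0.0127 (without the first 0.2 μM library) and 0.0408 (without the second DMSO library).

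TNFRSF1A (TNFR1), the death domain receptor for TNF, lies on chromosome 12 at 6328771 to 6342076, with no overlapping gene. It had 215 and 145 CPM in DMSO, 180 and 108 CPM at 0.2 μM and 178 CPM at 0.34 μM. The first library of each pair was the higher, and the groups overlapped. The mean was 180 ± 49.4 CPM in DMSO and 155 ± 41.2 CPM in doxorubicin, a log2 fold change of -0.21 (SE 0.28, adjusted p = 0.657) that was smaller than its error and turned positive, 0.095, without the first DMSO library. Relative to TNFRSF1A, FAS mRNA was 1.53 and 1.51 lower on the log2 scale per kb of exon in DMSO. The log2 ratio of FAS over TNFRSF1A was -0.36 and 0.65 at 0.2 μM and -0.27 at 0.34 μM. The level of this ratio depends on the exon length used, but its difference between the groups does not.

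FADD, the adaptor that links death domain receptors to CASP8, lies on chromosome 11 at 70203296 to 70207390, with no overlapping gene. Its values were 28.0 and 43.3 CPM in DMSO, 34.8 and 28.4 CPM at 0.2 μM and 30.8 CPM at 0.34 μM. All doxorubicin libraries lay between the DMSO libraries. The mean was 35.6 ± 10.8 CPM in DMSO and 31.3 ± 3.26 CPM in doxorubicin (log2 fold change -0.19, SE 0.22, adjusted p = 0.620), and the log2 fold change was 0.14 without the second DMSO library.

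CFLAR, the inhibitor at the same complex, spans 201116164 to 201176687 on chromosome 2. It had 48.7 and 26.4 CPM in DMSO, 59.0 and 59.5 CPM at 0.2 μM and 68.4 CPM at 0.34 μM. Treated libraries were close to each other and above the controls, which differed from each other more than the treated libraries did. The mean was 37.5 ± 15.8 CPM in DMSO and 62.3 ± 5.27 CPM in doxorubicin, and the log2 fold change of 0.73 (SE 0.27) did not pass the test (adjusted p = 0.119, and 0.0547 with DESeq2). It was 1.23 without the first DMSO library (adjusted p = 0.0197) and 0.34 without the second (adjusted p = 0.220), so its size depends on which control is used. CFLAR-AS1, 1 of 5 annotated genes that overlap it, had at most 13 counts. On the per-length scale the log2 ratio of TNFRSF10B over CFLAR was 3.47 and 4.63 in DMSO, 4.97 and 5.35 at 0.2 μM and 5.04 at 0.34 μM, and that of CFLAR over FADD was -2.92 and -4.43 in DMSO, -2.96 and -2.65 at 0.2 μM and -2.57 at 0.34 μM. The first ratio separated the groups and the second did not.

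**Figure D3:**
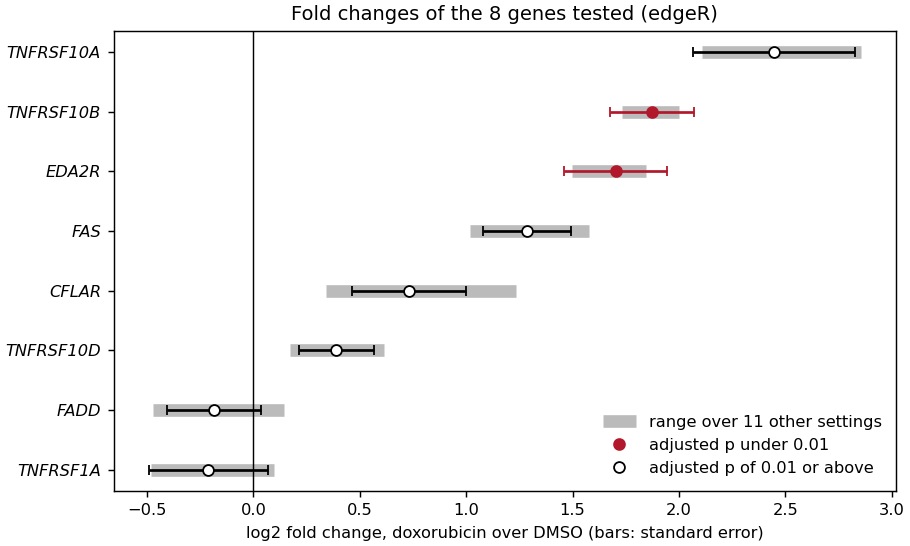
Log2 fold change of doxorubicin over DMSO (x axis) for the 8 genes tested, with the SE from edgeR (whiskers) and the range over 11 other settings, including each library left out (grey bars). TNFRSF10B and EDA2R are filled (adjusted p under 0.01), and the ranges of FADD and TNFRSF1A are the only ones that reach across 0.

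Per kb of exon, the order of the members changed with treatment at the top of the list. In DMSO it was TNFRSF1A (42.8 ± 11.7 CPM per kb), TNFRSF10B (26.5 ± 3.63), TNFRSF10D (21.3 ± 4.67), FADD (20.9 ± 6.33), FAS (14.8 ± 3.94), EDA2R (5.14 ± 0.607), CFLAR (1.67 ± 0.702), TNFRSF10A (0.788 ± 0.286) and TNFRSF10C (0.0624). Of neighbours in this order, TNFRSF10D and FADD, and FADD and FAS, were within 1 SD of each other (the wider SD of the pair), as were TNFRSF10B and FADD further apart in it. In doxorubicin TNFRSF10B led with 97.0 ± 13.3 CPM per kb, followed by TNFRSF1A (36.9 ± 9.80), FAS (36.2 ± 3.44), TNFRSF10D (27.9 ± 1.74), FADD (18.3 ± 1.91), EDA2R (16.7 ± 4.08), TNFRSF10A (4.30 ± 1.22), CFLAR (2.77 ± 0.235) and TNFRSF10C (0.0971). TNFRSF1A and FAS were within 1 SD of each other, as were TNFRSF1A and TNFRSF10D, and FADD and EDA2R. The values of CFLAR and TNFRSF1A depend on the length used, here the 22478 and 4205 bases of exon that all their annotated transcripts cover together. Over the canonical transcripts, of 14612 and 2171 bases, their DMSO means were 2.57 and 82.8 CPM per kb. Their doxorubicin means were then 4.27 and 71.5 CPM per kb. The 71.5 of TNFRSF1A is well above the 36.2 of FAS, which had no canonical length, and the 27.9 of TNFRSF10D. The closeness of TNFRSF1A to both in doxorubicin thus depends on the length used.

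The doses could be compared only with the spread of the DMSO and 0.2 μM pairs, since 0.34 μM had 1 library. No member passed the threshold between 0.34 and 0.2 μM, and neither did any other gene in edgeR (0% of genes; 22 at an unadjusted p under 0.05; 0 with DESeq2). The differences of 0.34 from 0.2 μM, on the log2 scale, were 0.07 (SE 0.31) for TNFRSF10B, -0.15 (SE 0.35) for EDA2R, -0.08 (SE 0.31) for FAS and 0.30 (SE 0.50) for TNFRSF10A. They were 0.01 (SE 0.29) for TNFRSF10D, 0.30 (SE 0.39) for TNFRSF1A, 0.21 (SE 0.38) for CFLAR and -0.04 (SE 0.35) for FADD. Each was smaller than its SE, which does not show that the doses act alike. Far fewer genes had an unadjusted p under 0.05 than the share of 0.05 that a calibrated test gives without any difference. The SEs of this comparison may thus be too wide, and its lack of calls cannot be read as a result on dose. Against DMSO, each dose alone gave TNFRSF10B a log2 fold change of 1.85 (SE 0.26) at 0.2 μM and 1.92 (SE 0.30) at 0.34 μM, and EDA2R one of 1.75 (SE 0.30) and 1.60 (SE 0.34). None of these passed the threshold in the fit of 3 conditions (adjusted p 0.0130 and 0.0231 for TNFRSF10B, 0.0249 and 0.0613 for EDA2R).

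Patterns were compared as log2 CPM with a prior count of 2, centred on the DMSO mean. Of all genes tested, those that followed TNFRSF10B most closely over the 5 libraries were PLB1 (root mean square difference 0.037 on the log2 scale), RPL23AP53 (0.078) and PLA2G4C (0.079). Their log2 fold changes were 2.03, 1.95 and 2.03, of which only that of RPL23AP53 passed the threshold (adjusted p = 0.0212 for PLB1, 0.00211 for RPL23AP53 and 0.0127 for PLA2G4C). The fitted log2 fold changes of PLB1 and PLA2G4C were further from the 1.87 of TNFRSF10B than these distances. PLB1 and PLA2G4C encode phospholipases and RPL23AP53 is a pseudogene of a ribosomal protein. Those nearest to EDA2R were CDH10, a cadherin (0.072), NTPCR, a nucleoside triphosphatase (0.12), and ZMAT3, a zinc finger protein known as a p53 target (0.12), with log2 fold changes of 1.71, 1.62 and 1.64. The likeness is a description over 5 libraries that share their treatment.

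The other genes of the pathway gave few calls, as did the table as a whole. The 7 lists, with 64 genes in all, were compiled from general knowledge with earlier results of these data known. Of their genes 44 were tested, 1 passed the threshold as higher (background 1.29%) and 0 as lower (background 2.73%). With DESeq2 2 were higher and 2 lower (background 14.1% in either direction). Their median log2 fold change was 0.065, beside 0.013 over all genes tested.

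The ligands were close to absent. None of the 6 death ligand genes passed the filter, FASLG and TNF had 0 counts in all libraries, and TNFSF10, which encodes TRAIL, had 6 and 4 counts in DMSO, 2 and 1 counts at 0.2 μM and 8 counts at 0.34 μM. A count of 0 in a library allows up to 3 counts, and a change in these genes was not detectable at this depth.

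Among the remaining receptors, 1 gene passed. TNFRSF14 (HVEM), a receptor without a death domain that binds LIGHT and BTLA, had 86 and 153 counts in DMSO, 469 and 705 counts at 0.2 μM and 874 counts at 0.34 μM. Its mean rose from 4.64 to 23.8 CPM (log2 fold change 2.36, SE 0.35, adjusted p = 0.00827), and it did not pass with any library left out (adjusted p 0.0148 to 0.0296). It was 1 of 7 tested genes of the 16 superfamily members without a death domain, whose median log2 fold change was 0.26. Of these, TNFRSF11A (RANK), named after its values were seen, went the other way, with a log2 fold change of -1.17 that passed in DESeq2 (adjusted p = 0.00325) and not in edgeR (adjusted p = 0.0468). Its size depended on the controls: the log2 fold change was -1.60 without the first DMSO library, where it passed (adjusted p = 0.00892), and -0.57 without the second (adjusted p = 0.0903). The 3 tested death domain receptors outside the 9 members included none that passed; TNFRSF21 (DR6), the most abundant, had a log2 fold change of -0.53 (SE 0.38, adjusted p = 0.392) that turned positive, 0.21, without the second DMSO library. TNFRSF11B (osteoprotegerin), a soluble decoy that binds TRAIL and RANK ligand, had 46 and 7 counts in DMSO, 167 and 24 counts at 0.2 μM and 255 counts at 0.34 μM. In DMSO and at 0.2 μM the first library was the higher. The spread within the groups of TNFRSF11B was as wide as the difference between them. Its log2 fold change of 2.25 (SE 1.00) did not pass (adjusted p = 0.185, and 0.0406 with DESeq2).

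Downstream of the receptors, 0 of 12 tested genes of the death-inducing complex and caspase list passed in edgeR, and 0 of 20 of the ubiquitin and NF-kB branch. With 4.02% of all genes passing, a count of 0 in lists of this size is near the background. In the first list the median log2 fold change was -0.07. DAXX, a FAS-binding nuclear protein and the most abundant of them, had a log2 fold change of -0.53 (SE 0.16, adjusted p = 0.0737). CASP8 itself, named for its role after the values were seen, had 12.9 CPM in DMSO and 11.6 CPM in doxorubicin (log2 fold change -0.16, SE 0.21, adjusted p = 0.660). Also named after their values were seen are the 2 genes of this list that passed in DESeq2. For TRADD, the adaptor of TNFRSF1A, the log2 fold change was 0.97 (adjusted p = 0.0469, and 0.00472 with DESeq2). For FAF1, a FAS-associated factor, it was -0.93 (adjusted p = 0.0132, and 2.21e-05 with DESeq2). In the ubiquitin and NF-kB branch the median log2 fold change was 0.077, and TAB2, an adaptor of the kinase MAP3K7 and the most abundant gene of the list, had one of -0.39 (SE 0.19, adjusted p = 0.225). In the necroptosis list RIPK3 and ZBP1 had at most 1 count and failed the filter, and MLKL, the protein that permeabilises the membrane, had a log2 fold change of -0.22 (SE 0.20, adjusted p = 0.511).

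**Figure D4:**
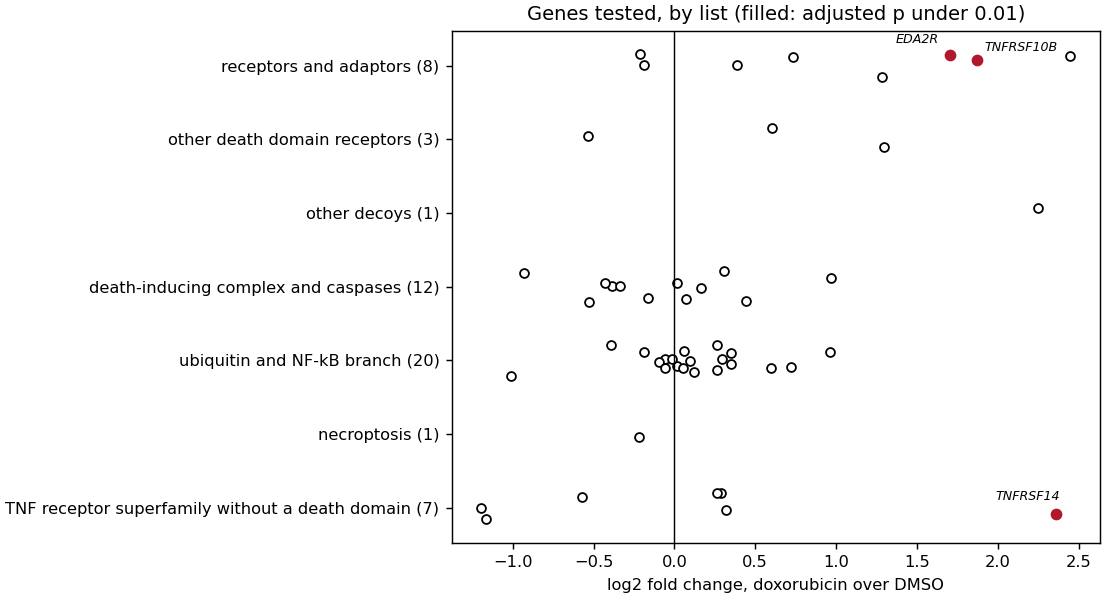
Log2 fold change of doxorubicin over DMSO (x axis) of every tested gene of the receptors and adaptors and of the lists with tested genes, with the number tested in brackets; the vertical offset of points has no meaning. The filled genes (adjusted p under 0.01) are TNFRSF10B, EDA2R and TNFRSF14, and the points of the complex and the NF-kB branch lie on both sides of 0.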

How the data were processed

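RNA-seq was performed on 5 RPE1 libraries. The authors deposited raw read counts per gene (paired-end reads of poly-A RNA, mapped to hg38 with STAR and counted with featureCounts of Rsubread and the iGenomes annotation). The sources used here give no tool versions, strand setting or handling of multi-mapping reads. The authors' own table of fold changes and p-values was not used, and the ChIP-seq and Hi-C data were not analysed here.

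The main test was the quasi-likelihood test of edgeR 4.0.16 in R 4.3.3 (TMM, default filter, with its minimum count at 10 and minimum total at 15), 3 doxorubicin against 2 DMSO libraries, with no covariates. Genes passed at an adjusted p (Benjamini-Hochberg) under 0.01. The SE is the absolute log2 fold change over the square root of F. The doses were compared in a fit of 3 conditions. DESeq2 1.42.0, limma 3.58.1 (voom), other normalization, filter, threshold and grouping, each library left out and a replicate block were alternatives. The DMSO libraries and the 0.2 μM libraries differed from each other far beyond counting noise (chi-square per degree of freedom 117 and 75.3), so none is a copy. Fits were tested on simulated data.

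Levels per kb used exon lengths of GENCODE for GRCh37, whereas positions and promoters are from RefSeq (GRCh38.p14). The shares with canonical lengths were added after seeing the data. The members and lists were chosen with earlier results of these data known. Named are all members, the genes of each list past the threshold or else its most abundant gene, the 3 nearest patterns of each member that passed, and CDKN1A. Depth limits genes with few counts, and floors cover counting error only.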

Additional observations from a re-analysis of the deposited data

How the results depend on the processing

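Of 571 genes past the threshold, the count was 2026 with DESeq2, 526 with limma voom, 564 with DESeq2-type size factors, 1020 without a filter, 323 for the average of both doses, 1927 at an adjusted p of 0.05, and 49 to 215 with 1 library left out. Of the members, 2 passed; 4 did with DESeq2, without a filter and at 0.05, 1 for the average of both doses (TNFRSF10B), and 0 to 1 with 1 library left out, where fewer libraries were tested. Of the pathway genes, 1 passed; 4 did with DESeq2 and at 0.05, 2 without a filter, 0 for the average of both doses, and 0 to 1 with 1 library left out. The cause of the other differences was not tested.

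The log2 fold changes of FAS, TNFRSF10A, TNFRSF10B, TNFRSF10D, EDA2R and CFLAR kept their direction under all 11 alternatives. That of TNFRSF1A lay between -0.48 and 0.0952 with 1 library left out, the positive value without the first DMSO library, and that of FADD between -0.47 and 0.144, the positive value without the second DMSO library.

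Replicate numbers are shared by the DMSO and 0.2 μM libraries, but no label says that they pair. Deviations of same-numbered libraries correlated with r = 0.528 over genes, with only 2 pairs. With the replicate block, in these 4 libraries, 1249 genes, 4 members (FAS and TNFRSF10A in addition) and 2 pathway genes passed, and the ratio of signalling over decoy receptors differed by 1.67 instead of 1.74. A block and a treatment term in 4 libraries leave almost no freedom to estimate the spread of each gene. The calls with the block thus rest largely on spread pooled over genes.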
